A study of Mus musculus with 6 samples.

Results

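The ligands and receptors of the tumour necrosis factor (TNF) superfamilies were described in mouse enterospheres kept with or without thyroid hormone. The members were the measured genes whose symbols follow the Tnfsf or Tnfrsf naming pattern, together with Tnf, Lta, Ltb, Ltbr, Fas, Fasl, Cd40, Cd27, Cd70, Eda, Edar and Eda2r. Of 19938 genes measured, 41 were members, 15 ligands and 26 receptors. Enterospheres are free-floating clusters of neural progenitor cells, here grown from the gut muscle of newborn (P0) C57BL/6 mice, with cells of 3 animals pooled for each sample. They were expanded with epidermal and fibroblast growth factor for 4 days in plates and 5 days in dishes, and then moved to medium without these factors for 1 day. The T3 group (3 samples) then received triiodothyronine, the active form of thyroid hormone, at 100 nM for 1 day, the unit being written nm in the labels. The control group (3 samples) came from the same kind of dishes left without T3 for that day. No genotype, transgene or sort separates the groups. Total RNA of each sample was read on 1 Affymetrix mouse gene array, and the values are log2 signals per probe set. Each member had 1 probe set of its own. Tnfsf12 and Tnfsf13, which share a probe set, were not counted as members.

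The array medians lay between 6.09 and 6.15 and their lower quartiles between 4.47 and 4.53 on the log2 scale. No cell type was isolated, and the means of the marker lists cannot be compared with each other, since each probe set has its own response. On the log2 scale enteric glia and Schwann cell genes averaged 10.00 to 10.12 across the arrays, neuron genes 9.37 to 9.76, fibroblast and mesenchyme genes 10.43 to 10.52, and macrophage and leukocyte genes 5.11 to 5.25. A change cannot be placed in one cell type. In whole spheres, more RNA per cell and more cells of one type cannot be told apart.

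TNF family ligands are mostly trimeric membrane proteins that can be shed by proteases, and they cluster their receptors on contact. Receptors with a death domain can recruit Fadd or Tradd and caspases, most of the others recruit TRAF adaptors and activate NF-kappaB, and decoy receptors bind a ligand without signalling. Outside the immune system the family takes part in the growth and pruning of axons, in the development of skin appendages and in bone turnover.

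The single member that passed the test was Tnfrsf14, a receptor also called HVEM, whose signal rose 2.64-fold. Of the 41 members 1 was higher and 0 were lower at an adjusted p under 0.05 (limma, adjusted over all genes), or 2.44%, beside 3.1% of all genes (2.28% higher and 0.823% lower). At an unadjusted p under 0.05 the members numbered 4 (9.76%, against 13.7% of all genes), with Tnfrsf14 and Tnfrsf19 higher and Eda2r and Cd40 lower. The T3 and control arrays did not overlap for 6 members (14.6%, against 19.5% of all genes), 3 of them above the controls (11.9% of all genes) and 3 below (7.55% of all genes). These shares lay near or under those of all genes. The median log2 change was 0.01 over the members and 0.0088 over all genes. The presence of Tnfrsf14 among the members was known when they were chosen, so its call is not independent evidence on the family.

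**Figure D1:**
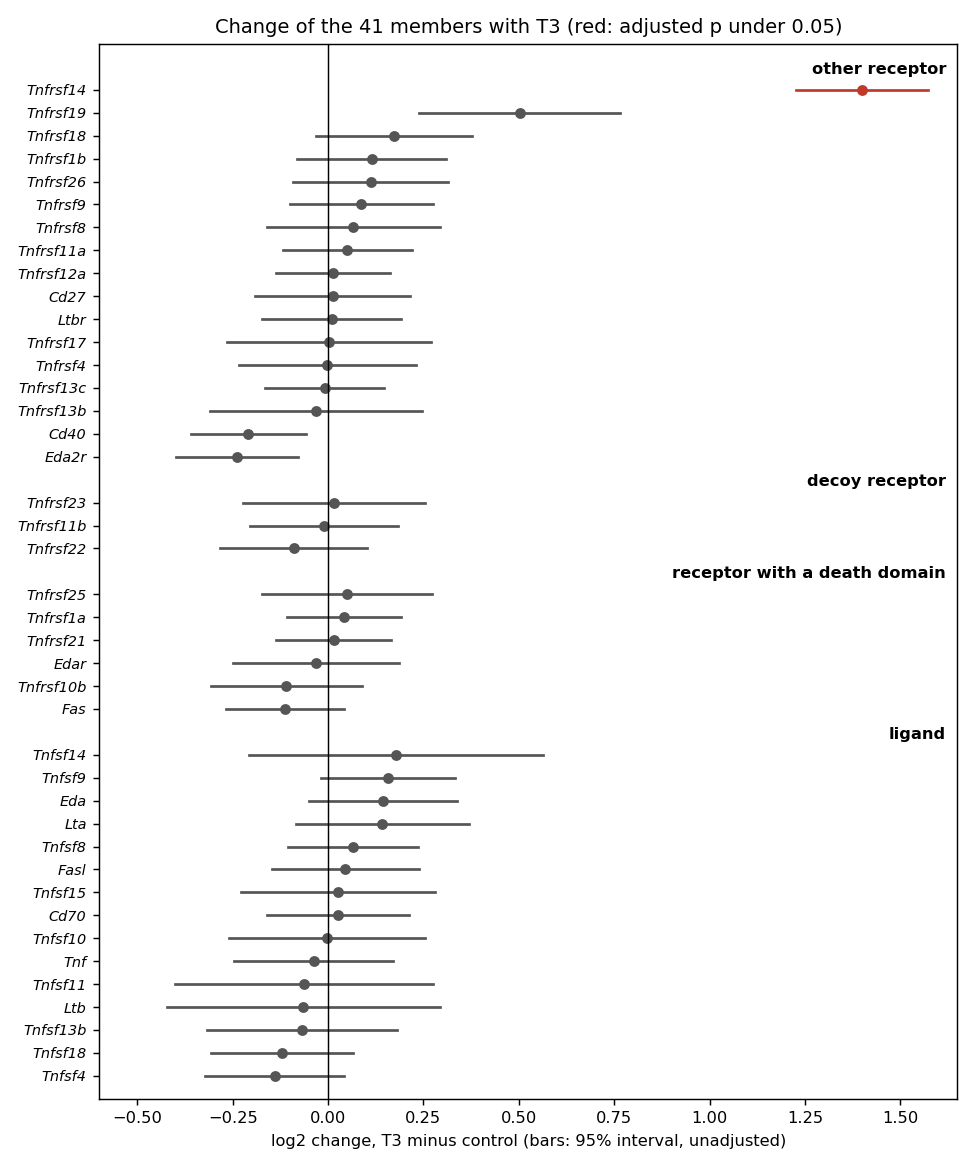
Log2 change (T3 minus control) of each of the 41 members, by class, with the 95% interval of the limma fit. Only Tnfrsf14, in red, had an adjusted p under 0.05, and the points of the other 40 lie between -0.24 and 0.50.

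The sequence before and at the start of Tnfrsf14 is shown first because it belongs to the one member that passed the test, and that of Tnfrsf19 because its change was next in size. Prxl2b, the next measured gene on the chromosome, is shown because its signal rose with that of Tnfrsf14. Each run holds 250 bases before and 50 bases from an annotated start, from RefSeq on GRCm38.p6, 5′ to 3′ on the gene's strand. Capitals mark AGGTCA, the half-site that thyroid hormone receptors bind, or its reverse complement TGACCT.
Tnfrsf14, chr4:154928028-154928327, minus strand: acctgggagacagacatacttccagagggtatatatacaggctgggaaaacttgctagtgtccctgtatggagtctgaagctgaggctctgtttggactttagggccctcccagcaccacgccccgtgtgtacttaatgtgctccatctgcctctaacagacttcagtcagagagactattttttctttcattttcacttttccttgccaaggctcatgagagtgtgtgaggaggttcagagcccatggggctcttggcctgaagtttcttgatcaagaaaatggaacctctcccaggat
Prxl2b, chr4:154898994-154899293, minus strand: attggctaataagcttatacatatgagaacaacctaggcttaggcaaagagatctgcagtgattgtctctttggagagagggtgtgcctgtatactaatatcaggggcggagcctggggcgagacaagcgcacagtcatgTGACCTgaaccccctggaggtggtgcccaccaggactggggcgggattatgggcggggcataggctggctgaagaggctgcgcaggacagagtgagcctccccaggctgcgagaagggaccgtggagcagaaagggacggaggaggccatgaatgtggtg
Tnfrsf19, upstream start, chr14:61046806-61047105, minus strand: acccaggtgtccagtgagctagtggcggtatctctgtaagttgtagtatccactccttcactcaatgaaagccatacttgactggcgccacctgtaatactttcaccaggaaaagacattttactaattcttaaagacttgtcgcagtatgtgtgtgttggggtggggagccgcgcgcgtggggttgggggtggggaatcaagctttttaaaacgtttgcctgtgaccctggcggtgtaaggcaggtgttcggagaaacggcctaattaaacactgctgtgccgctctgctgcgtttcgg
Tnfrsf19, downstream start, chr14:61037938-61038237, minus strand: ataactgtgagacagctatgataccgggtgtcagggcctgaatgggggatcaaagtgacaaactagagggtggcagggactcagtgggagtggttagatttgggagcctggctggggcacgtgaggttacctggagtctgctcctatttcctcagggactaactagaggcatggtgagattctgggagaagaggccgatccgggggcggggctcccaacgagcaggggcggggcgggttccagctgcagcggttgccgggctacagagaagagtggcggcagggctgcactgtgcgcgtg

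The half-site was in none of the 3 windows of Tnfrsf14 and Tnfrsf19 and once, on the reverse strand, in that of Prxl2b, where it ended 104 bases before the start. Searched on both strands, AGGTCA was in 16.3% of the 32851 promoter windows of the table and in 4 of the 37 windows of members (10.8%), those of Tnfrsf9, Tnfrsf13b, Tnfrsf25 and Tnfsf10. The table held windows for 33 of the 41 members. A pair of half-sites in the same direction with 4 bases between them, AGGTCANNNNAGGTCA, which contains the single half-site, was in 5 windows of the table and in none of a member. The NF-kappaB motif, GGG and TTTCC with any 2 bases between them, was in 1.63% of all windows and in 3 of the 37 windows of members (8.11%), those of Ltb, Tnfrsf9 and Tnfrsf25. None of the members with a motif in a window was called. A match describes letters only, and sequence outside these windows was not searched.

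Tnfrsf14 encodes a receptor for the ligands Tnfsf14 (LIGHT) and lymphotoxin alpha and for the immunoglobulin-family proteins Btla and Cd160, known best from lymphocytes and epithelium. Its log2 signal (probe set 10519060) was 7.88, 7.93 and 7.95 in control replicates 1, 2 and 3, and 9.20, 9.36 and 9.40 in T3 replicates 1, 2 and 3. Every T3 array lay above every control array, with a gap of 1.26 between the groups, wider than the spread within either. The means were 7.92 ± 0.04 (SD, n = 3) in controls and 9.32 ± 0.10 (SD, n = 3) with T3. The log2 change was 1.40 ± 0.08 (SE), with a 95% interval of 1.23 to 1.57 and an adjusted p of 0.000131 (limma). Its change was number 17 from the top among the 19938 genes. The call was kept in each fit without 1 array, with log2 changes of 1.36 to 1.46 and adjusted p (limma) of 0.000622 to 0.00245.

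**Figure D2:**
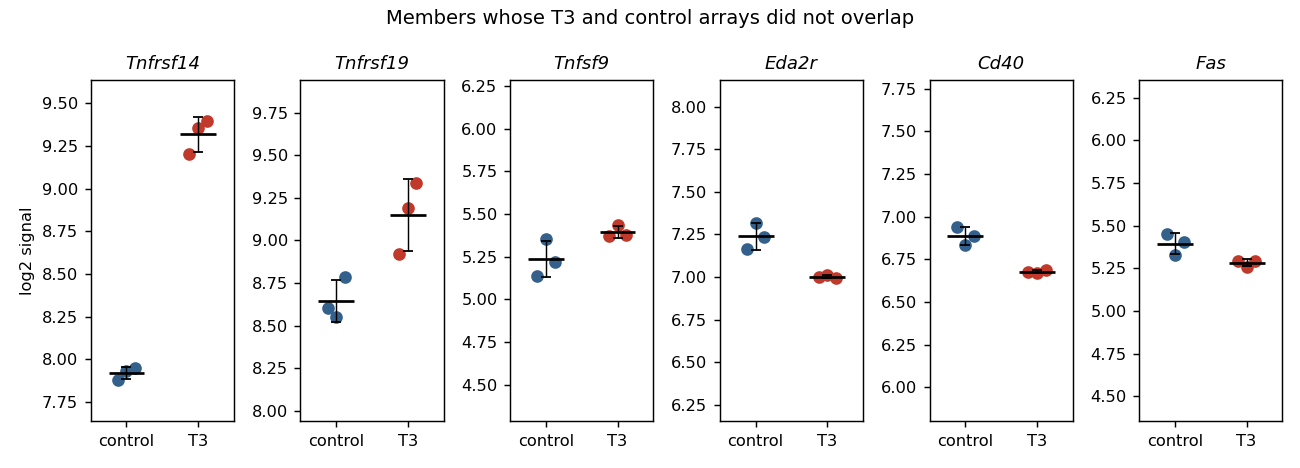
Log2 signal on each array (points) for the 6 members whose groups did not overlap, with group means (lines) and SD (bars) for 3 control and 3 T3 arrays. Every panel spans the same range of log2 units. The gap of Tnfrsf14 is 1.26, against 0.02 for Tnfsf9 and 0.03 for Fas.

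None of the partners of Tnfrsf14 passed the test. Tnfsf14 had a log2 signal of 4.80, 4.29 and 5.00 in control replicates 1 to 3 and 4.86, 4.72 and 5.04 in T3 replicates 1 to 3, and the groups overlapped. Its log2 change was 0.18 ± 0.17 (SE) with a 95% interval of -0.21 to 0.56, and that of Lta was 0.14 ± 0.10 (SE) with an interval of -0.08 to 0.37. Neither passed (adjusted p = 0.779 and 0.650, limma). Btla, with a mean log2 value of 3.92 in controls, and Cd160, with 4.39, had changes of 0.06 and -0.01 and did not pass (adjusted p = 0.895 and 0.985). These signals were dim, and whether they were above background is not known, so a rise from a very low level could have been missed. Ltbr, the other receptor of Tnfsf14, had log2 signals of 8.30, 8.34 and 8.32 in control replicates 1 to 3 and 8.21, 8.32 and 8.46 in T3 replicates 1 to 3. The T3 arrays of Ltbr lay on both sides of the controls, and its log2 change was 0.0095 ± 0.08 (SE), with an interval of -0.17 to 0.19.

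Tnfrsf14 lies on chromosome 4, where 9 members are found, 7 receptors and 2 ligands. The other receptors there are Tnfrsf1b, Tnfrsf4, Tnfrsf8, Tnfrsf9, Tnfrsf18 and Tnfrsf25, none of which passed, with log2 changes from -0.0027 for Tnfrsf4 to 0.17 for Tnfrsf18. The next measured gene on one side, by the order of GRCm38.p6, was Prxl2b, which encodes an enzyme of prostaglandin F synthesis and lies on the same strand as Tnfrsf14. It is no member of the family and was chosen after its values were seen. Its log2 signal (probe set 10519052) was 7.97, 7.97 and 8.14 in control replicates 1 to 3 and 9.45, 9.27 and 9.39 in T3 replicates 1 to 3. Every T3 array of Prxl2b lay above every control array, with a log2 change of 1.35 ± 0.08 (SE), a 2.54-fold rise, and an adjusted p of 0.000223 (limma). Without any 1 array its adjusted p (limma) was 0.000731 to 0.00294.

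Beyond Prxl2b, Mmel1, a membrane metalloendopeptidase gene, had a log2 change of 0.46 ± 0.12 (SE) with T3 arrays above all controls and did not pass (adjusted p = 0.0933). On the other side, the Notch effector gene Hes5 had a change of -0.15 and Pank4, a pantothenate kinase family gene, one near 0, and neither passed. The pair of neighbours that rose was thus bounded by genes that were not called. Over the whole array, 45 of the 454 genes called higher (9.91%) had a gene next to them that was also called higher. The share was 4.29% among the genes not called higher. The sources used here do not give the positions of the probes. Whether the probe sets of Tnfrsf14 and Prxl2b read separate transcripts or a common one was therefore not tested, and their values may not be separate measurements of both genes.

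**Figure D3:**
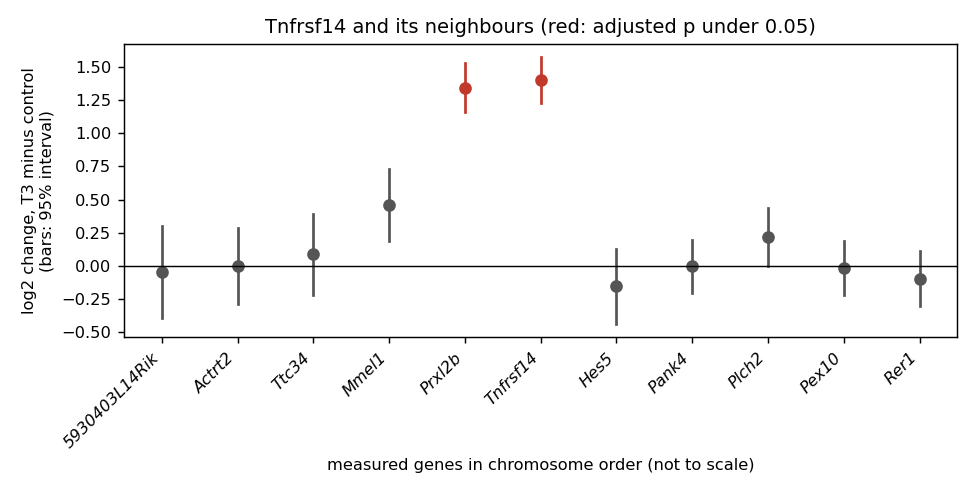
Log2 change (T3 minus control, points) with 95% interval (bars) of Tnfrsf14 and the 5 measured genes on either side, in chromosome order. Prxl2b and Tnfrsf14, in red, had changes of 1.35 and 1.40, and Mmel1 one of 0.46.

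Tnfrsf19, also called Troy, is a receptor of neural and epithelial progenitors that can take part in the Nogo receptor complex of neurons. Its log2 signal was 8.60, 8.55 and 8.79 in control replicates 1 to 3, and 8.92, 9.19 and 9.34 in T3 replicates 1 to 3. The groups did not overlap, with a gap of 0.13, but the T3 arrays were spread over a wider range than the controls. The log2 change of 0.50 ± 0.12 (SE), or 1.42-fold, did not pass (adjusted p = 0.0616, limma), and its 95% interval was 0.24 to 0.77. The call turned with the setting: it passed, among others, without T3 replicate 1 (0.0313), without the dimmest 50% of genes (0.0331) and with trend and robust fitting (0.0227), and had an adjusted p of up to 0.237 without control replicate 1. The share of all genes called moved too, from 3.1% as reported to 1.98%, 7.47%, 4.39% and 0.958% in these 4 settings, in that order.

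**Figure D4:**
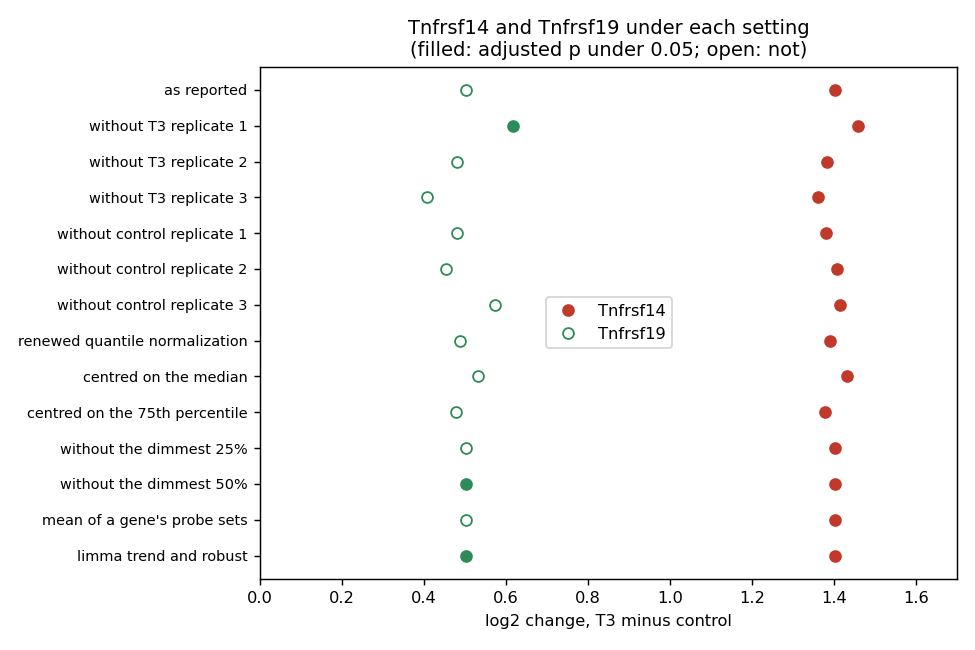
Log2 change (T3 minus control) of Tnfrsf14 (red) and Tnfrsf19 (green) under the reported setting and the alternatives drawn, filled where the adjusted p was under 0.05. Tnfrsf14 is filled throughout, between 1.36 and 1.46, and Tnfrsf19 lies between 0.41 and 0.62 and is filled in 3 of the alternatives drawn. The fit with the replicate number as a block, where Tnfrsf19 also passed, is not drawn.

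A pair of TRAF-binding receptors had lower signals with T3 by small amounts and did not pass. Eda2r, a receptor of the A2 form of ectodysplasin, had log2 signals of 7.16, 7.32 and 7.24 in control replicates 1 to 3 and 7.00, 7.01 and 6.99 in T3 replicates 1 to 3. Cd40, a receptor known from B cells and antigen-presenting cells, had 6.94, 6.83 and 6.89 in controls and 6.68, 6.67 and 6.69 with T3. In both genes all T3 arrays lay below all controls and close together, with gaps of 0.15. The log2 changes were -0.24 ± 0.07 (SE) for Eda2r and -0.21 ± 0.07 (SE) for Cd40, with adjusted p of 0.138 and 0.167 (limma). Eda, the ligand of Eda2r and Edar, had log2 signals of 8.07, 8.08 and 8.13 in control replicates 1 to 3 and 8.08, 8.36 and 8.27 in T3 replicates 1 to 3. The groups of Eda overlapped through T3 replicate 1, and its change of 0.14 ± 0.09 (SE) did not pass (adjusted p = 0.555). Edar, which patterns hair and teeth, had a change of -0.03.

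Of the 6 receptors with a death domain, none passed (0 at an unadjusted p under 0.05, limma, beside 13.7% of all genes). The log2 changes of these receptors lay between -0.11 and 0.05. Tnfrsf1a, the main receptor of TNF, had log2 signals of 10.91, 10.96 and 10.91 in control replicates 1 to 3 and 10.92, 10.99 and 10.99 in T3 replicates 1 to 3. Tnfrsf21, also called death receptor 6 and known from axon pruning, had 10.29, 10.29 and 10.31 in controls and 10.31, 10.26 and 10.37 with T3. The groups of both receptors overlapped, and their 95% intervals were -0.11 to 0.19 for Tnfrsf1a and -0.14 to 0.17 for Tnfrsf21. Fas, which triggers apoptosis when bound by Fasl, had log2 signals of 5.45, 5.33 and 5.40 in control replicates 1 to 3 and 5.29, 5.26 and 5.29 in T3 replicates 1 to 3. The T3 arrays of Fas were below the controls by a gap of only 0.03, and its change of -0.11 ± 0.07 (SE) did not pass (adjusted p = 0.568). Tnfrsf10b, a receptor of the ligand Tnfsf10 (TRAIL), and Tnfrsf25, a receptor of Tnfsf15, had changes of -0.11 and 0.05.

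The 3 decoy receptors had log2 changes from -0.09 to 0.02, and 0 of them had an unadjusted p under 0.05, beside 13.7% of all genes. Tnfrsf11b, or osteoprotegerin, which binds the bone ligand Tnfsf11 (RANKL), averaged 6.99 ± 0.04 (SD, n = 3) on the log2 scale without T3 and 6.98 ± 0.14 (SD, n = 3) with it. Tnfsf11 itself was at 7.20 ± 0.26 (SD, n = 3) and 7.13 ± 0.22 (SD, n = 3), and its signalling receptor Tnfrsf11a had a change of 0.05. None of the RANKL group passed. Tnfrsf22 and Tnfrsf23, the mouse decoys of TRAIL, had changes of -0.09 and 0.02.

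Of the 17 other receptors 16 did not pass, with log2 changes from -0.24 to 0.50. The 1 called, Tnfrsf14, was 5.88% of the class, beside 3.1% of all genes. At an unadjusted p under 0.05 (limma) there were 4 (23.5%, beside 13.7% of all genes), with Tnfrsf14 and Tnfrsf19 higher and Eda2r and Cd40 lower. The groups did not overlap for 4 (23.5%, beside 19.5% of all genes), 2 above the controls and 2 below. These shares rest on few genes and include Tnfrsf14. Tnfrsf12a, also called Fn14, the receptor of the ligand Tnfsf12 (TWEAK) in growth and repair, had log2 signals of 8.77, 8.80 and 8.86 in control replicates 1 to 3 and 8.82, 8.80 and 8.84 in T3 replicates 1 to 3. The T3 values of Tnfrsf12a lay within the range of the controls, with an interval of the change of -0.14 to 0.16. Tnfrsf18, or GITR, known to promote the growth of sympathetic axons in newborn mice, had a change of 0.17 ± 0.09 (SE) and its ligand Tnfsf18 one of -0.12 ± 0.08 (SE), and neither passed (adjusted p = 0.479 and 0.637). Tnfrsf1b, the second receptor of TNF, had a change of 0.11 ± 0.09 (SE), and Tnfrsf26, a receptor gene beside Tnfrsf22 and Tnfrsf23, one of 0.11 ± 0.09 (SE). The lymphocyte receptors Tnfrsf4, Tnfrsf8, Tnfrsf9, Tnfrsf13b, Tnfrsf13c, Tnfrsf17 and Cd27 had changes from -0.03 to 0.09, with adjusted p of at least 0.779.

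None of the 15 ligands passed (0 at an unadjusted p under 0.05, limma, beside 13.7% of all genes). The log2 changes of the ligands lay between -0.14 and 0.18. On every array 13 of them were below the array median, and Tnfsf4, Tnfsf8 and Tnfsf18 were below the lower quartile. Tnf had log2 signals of 4.98, 4.78 and 4.95 in control replicates 1 to 3 and 4.99, 4.85 and 4.75 in T3 replicates 1 to 3. The groups of Tnf overlapped, its change was -0.04 ± 0.09 (SE), and its 95% interval was -0.25 to 0.17. Tnfsf9, the ligand of the lymphocyte receptor Tnfrsf9, had 5.14, 5.35 and 5.22 in controls and 5.37, 5.44 and 5.37 with T3. Its groups were apart by a gap of only 0.02, and the change of 0.16 ± 0.08 (SE) did not pass (adjusted p = 0.438). Ltb, the membrane partner of lymphotoxin alpha, had 5.41, 5.34 and 5.95 in control replicates 1 to 3 and 5.64, 5.49 and 5.37 in T3 replicates 1 to 3. Control replicate 3 of Ltb stood above all other arrays, and the change was -0.07 ± 0.16 (SE). Fasl, Cd70, Tnfsf8, Tnfsf10, Tnfsf13b (BAFF) and Tnfsf15 had changes from -0.07 to 0.07, with adjusted p of at least 0.827.

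For 38 of the 41 members the 95% interval of the log2 change lay within 0.5 on either side of 0, as for 18006 of all 19938 genes. The exceptions among the members were Tnfrsf14, Tnfrsf19 and Tnfsf14. These intervals are not adjusted for the number of genes, and array background compresses the differences of dim genes.

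For genes that act after the receptors, calls are read beside the 3.1% of all genes. None of 8 measured TRAF adaptors and related genes passed (median log2 change -0.02), among them Traf4 at -0.32 ± 0.08 (SE, adjusted p = 0.0702), Traf5 at 0.18 and Traf2 at 0.14. None of 11 death receptor adaptors, caspases and related genes passed (median -0.06), with Cflar, an inhibitor of caspase 8 activation, at -0.15, the kinase gene Ripk3 at -0.16 and Madd at 0.13. None of 15 inhibitors of apoptosis and ubiquitin regulators passed (median -0.03), with Tab2 at -0.13, the deubiquitinase gene Otulin at -0.13 and Tnfaip3, the feedback inhibitor A20, at 0.13. These 3 lists held 1, 0 and 0 genes at an unadjusted p under 0.05, beside 13.7% of all genes.

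Among 11 measured NF-kappaB subunits, inhibitors and kinases, 1 rose and 0 fell, with a median of 0.01. It was Bcl3, a nuclear cofactor of NF-kappaB, with a log2 change of 0.34 ± 0.07 (SE) and an adjusted p of 0.0318 (limma), a call lost without any 1 array other than control replicate 2 (adjusted p up to 0.158). Nfkbia and Ikbkg, at -0.12 and 0.13, did not pass. Of 29 genes known to rise when TNF activates NF-kappaB, 2 rose and 0 fell, with a median of 0.05. At an unadjusted p under 0.05 there were 6 (20.7%, beside 13.7% of all genes), and the groups did not overlap for 7 (24.1%, beside 19.5%), 6 of them above the controls and 1 below. The genes at an unadjusted p under 0.05 were not all higher. Changes of the 29 genes ran from -0.33 to 0.86, with 19 above 0 and 10 below. Mmp9, a secreted matrix protease, rose by 0.86 ± 0.12 (SE) with an adjusted p of 0.00862 (limma), and passed without any 1 array (up to 0.0416). Tnfaip2 rose by 0.41 ± 0.08 (SE) with an adjusted p of 0.0386, a call lost without any 1 array other than control replicate 2 (up to 0.180). In the fits that lost the calls of Bcl3 and Tnfaip2, 191 to 405 of all genes were called. The number was 618 as reported and 640 without control replicate 2. Over all fits without 1 array the log2 changes were 0.32 to 0.37 for Bcl3 and 0.36 to 0.49 for Tnfaip2. Irf1, a transcription factor, had a change of 0.41 and did not pass (adjusted p = 0.105). The shares called, 9.09% and 6.90%, stand beside 3.1% of all genes and rest on 1 and 2 genes.

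None of 5 sheddases and their regulators passed, with Rhbdf2 at 0.31, Rhbdf1 at -0.19 and the protease inhibitor gene Timp3 at 0.16. At an unadjusted p under 0.05 there were 3 of these 5, beside 13.7% of all genes. In all 5 the T3 and control arrays stood apart (beside 19.5% of all genes), 3 above the controls and 2 below. Of 5 further genes of the family or its partners that the symbol rule does not cover none passed. An unadjusted p under 0.05 was found for 0 of these, beside 13.7% of all genes. Ngfr, the neurotrophin receptor of neural crest cells, had a mean log2 value of 12.16 in controls, and its change of -0.0042 lay among changes from -0.01 to 0.12, the highest being that of Relt.

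**Figure D5:**
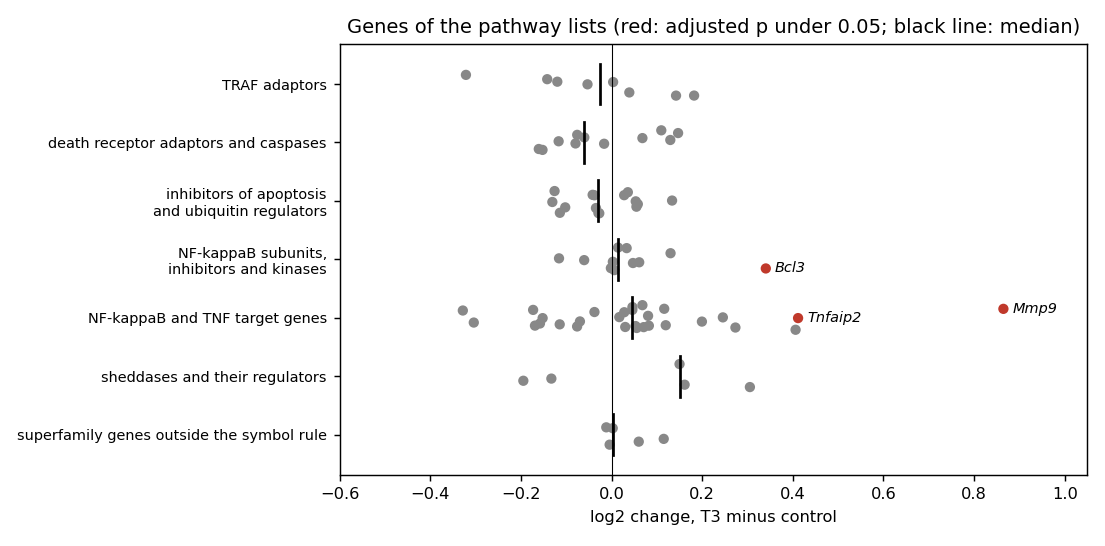
Log2 change (T3 minus control) of each measured gene of the pathway lists, with list medians as black lines. Bcl3, Tnfaip2 and Mmp9, in red, at 0.34, 0.41 and 0.86, were the genes with an adjusted p under 0.05.

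Some markers of cell types passed the test as Tnfrsf14 did, beside 2.28% higher and 0.823% lower of all genes. Of 12 measured neuron genes 4 rose (Prph, Dbh, Nos1 and Snap25) and 0 fell, and the mean of the list was 9.71 to 9.76 on the T3 arrays against 9.37 to 9.52 on the controls. Of 18 macrophage and leukocyte genes 0 passed, with means of 5.19 to 5.25 with T3 and 5.11 to 5.24 without, which overlapped. Without adjustment 3 of them (16.7%, beside 13.7% of all genes), all higher, had a p under 0.05. Of 8 glial genes Lgi4 rose and 0 fell, but 5 had changes below 0 and the median was -0.06, with Gfap at -0.20 and Mbp at -0.09, which did not pass. Of 10 fibroblast and mesenchyme genes Thy1 rose and Twist1 fell, of 8 smooth muscle genes 2 rose (Myocd and Myh11) and 2 fell (Tagln and Acta2), and of 8 endothelial genes 1 rose (Plvap) and 2 fell (Egfl7 and Kdr). Called or not, changes were below 0 in 7 fibroblast, 2 smooth muscle, 3 endothelial, 3 neuron and 7 leukocyte genes. The median changes of these lists were -0.04, 0.27, 0.14, 0.25 and 0.02, in that order. Their shares at an unadjusted p under 0.05 (limma, either direction) were 40%, 75%, 37.5%, 58.3% and 16.7%, in the same order. The share of the glial genes was 12.5%, and that of all genes 13.7%. The part of any of these cells in the rise of Tnfrsf14 was not tested.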

How the data were processed

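The authors deposited log2 values of 35556 probe sets, made with RMA and Partek 6.5 per the submitters' processing notes. RMA usually normalizes arrays by quantiles, which removes a change common to most genes. The sources used here do not give its settings, detection calls or the genome build of the probe sets. The platform annotation gave 1 symbol to 21789 probe sets, and the brightest of a gene was used (19938 genes). T3 minus control was tested with limma 3.58.1 in R 4.3.3 (lmFit, eBayes, no covariate, no filter), two-sided, and p-values were adjusted over all genes (Benjamini-Hochberg, threshold 0.05). The procedure was tested on simulated data. SE is that of the limma change and SD is over 3 arrays. Whether the samples of a group came from separate cultures is not stated beyond the 3 mice of each, so the p-values reflect only how these samples vary, which may be technical. All members may be named. Of each pathway list the called genes and the 3 of smallest p are named. Of the cell type lists the called genes are named, and for glia also Gfap and Mbp, which were not called. Ngfr and the genes beside Tnfrsf14 were chosen after their values were seen. The members, gene lists and tests were chosen with earlier results of these data known. Sequences come from RefSeq, GRCm38.p6. No 2 arrays of a group were duplicates (SD of their difference 0.137 to 0.243). The number of arrays limits the precision.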

Additional observations from a re-analysis of the deposited data

How the results depend on the processing

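Tnfrsf14 and Prxl2b passed under all 14 alternatives. The number of members higher with T3 was 1 as reported, and 1 to 2 when 1 array was left out. It was 2, Tnfrsf14 and Tnfrsf19, with the replicate number as a block, without the dimmest 50% of genes (12 members left) and with trend and robust fitting. Of all genes, 3.1% were called in either direction as reported, and 0.958% to 3.21% without 1 array. The share was 2.37% with the block, 7.47% without the dimmest 50% and 4.39% with trend and robust fitting. The number of members lower was 0 throughout. In the reported fit 2 members (Eda2r and Cd40) were lower at an unadjusted p under 0.05 (limma). They were among 4 members at that threshold in either direction (9.76%, beside 13.7% of all genes). The block gave an adjusted p of 0.0401 for Tnfrsf19, 0.0783 for Bcl3 and 0.0568 for Tnfaip2, and the last 2 thereby lost their calls. The deviations of same-numbered arrays correlated at 0.18, 0.02 and 0.00017, and only those of number 1 correlated best with each other, so the numbers were not taken as pairs. Of 535 member values under alternatives, 58 had the opposite sign, in 22 members whose reported log2 change was at most 0.18 in size. No such value passed, and the cause was not tested. Without 1 array these ranged from -0.0482 to 0.0778 for Cd27, -0.0473 to 0.0786 for Cd70, -0.124 to 0.0533 for Edar, -0.0306 to 0.101 for Fasl, -0.180 to 0.128 for Ltb, -0.0539 to 0.0694 for Ltbr, -0.102 to 0.0195 for Tnf, -0.0875 to 0.0500 for Tnfrsf11b, -0.00735 to 0.0393 for Tnfrsf12a, -0.139 to 0.108 for Tnfrsf13b, -0.0342 to 0.0204 for Tnfrsf13c, -0.112 to 0.103 for Tnfrsf17, -0.0116 to 0.0397 for Tnfrsf21, -0.0830 to 0.0871 for Tnfrsf23, -0.0572 to 0.111 for Tnfrsf25, -0.0757 to 0.0827 for Tnfrsf4, -0.0133 to 0.164 for Tnfrsf8, -0.118 to 0.0881 for Tnfsf10, -0.183 to 0.0793 for Tnfsf11, -0.191 to 0.00844 for Tnfsf13b, -0.0232 to 0.328 for Tnfsf14 and -0.0789 to 0.105 for Tnfsf15. With renewed quantile normalization the turned values were 0.00391 for Edar, -0.00960 for Ltbr, 0.000497 for Tnfrsf11b, -0.00535 for Tnfrsf12a, 0.00515 for Tnfrsf13b, 0.000758 for Tnfrsf13c, 0.0341 for Tnfrsf4 and 0.0246 for Tnfsf10. With arrays centred on the median they were 0.0194 for Tnfrsf11b, 0.0204 for Tnfrsf13c, 0.0271 for Tnfrsf4 and 0.0271 for Tnfsf10. With arrays centred on the 75th percentile they were -0.0123 for Cd27, -0.0146 for Ltbr, -0.0111 for Tnfrsf12a, -0.0217 for Tnfrsf17, -0.00886 for Tnfrsf21 and -0.00904 for Tnfrsf23. Taking the mean over probe sets left the values of members as they were, since each has 1 probe set.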

Other observations

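The ligand genes Tnfsf12 (TWEAK) and Tnfsf13 (APRIL) are read, together with their joint transcript Tnfsfm13, by probe set 10387568. Its log2 signals were 8.35, 8.48 and 8.38 in control replicates 1 to 3 and 8.39, 8.44 and 8.46 in T3 replicates 1 to 3. The groups overlapped, and the difference of their means was 0.03. The signal cannot be divided among the genes that share the probe set.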
